A study of Mus musculus with 16 samples.

Results

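Cytoplasmic ribosomal protein genes encode the proteins of the large (Rpl) and small (Rps) ribosomal subunits. They were taken by symbol: Rpl or Rps, a number and at most one of the endings a, l, x or l1, with Rplp0, Rplp1, Rplp2 and Rpsa added, and with pseudogenes and Rps6k kinases left out. On the array, 48 such genes (26 large subunit, 22 small subunit) of 18193 named genes had a probe set assigned to them alone. The RefSeq gene table holds 86 symbols of this form, of which 28 were measured only by probe sets assigned to several genes and 10 by none. Each gene was read from its brightest probe set, and 46 genes (25 large, 21 small) passed the filter on dim genes. Rpl3l, the muscle form of Rpl3, lay between 6.31 and 9.58 intensity units over all arrays and Rps16 between 3.8 and 4.04, and neither was tested. So low a signal may come from the probe set, and it does not show that Rps16 is silent.

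The study used 16 arrays of cultured C57BL/6 mouse spermatogonial stem cells, the germ cells that maintain sperm production. All cultures came from Thy1+ germ cell fractions and grew without serum in medium supplemented with 20 ng/ml GDNF, a further 150 ng/ml of GFRA1 and, of FGF2, 1 ng/ml. All 4 groups received siRNA for 30 h, and each had 4 arrays: a Negative control, an Etv5 knockdown, a Bcl6b knockdown and a Pou3f1 knockdown. Etv5 is an ETS family transcription factor, Bcl6b a zinc finger repressor and Pou3f1 a POU domain factor, and the genes for all 3 are induced by GDNF in these cells. The knockdown is transient. Nothing in the labels ties replicates to separate cultures, and p-values therefore reflect only how far these samples vary, which may be technical.

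A ribosome needs about equal numbers of most of its proteins, and cells make them from very abundant messenger RNAs. Most of these messengers start with a run of pyrimidines, the terminal oligopyrimidine (TOP) motif, through which the mTOR pathway and the RNA-binding protein Larp1 control their translation and stability. Transcription of ribosomal protein genes in mammals draws on short, GC-rich promoters in which ETS sites are common. Changes of growth factor signalling often act on translation of these messengers with little change of their level, which an array of total RNA would not show.

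The promoters are shown because one of the factors knocked down binds ETS sites. RefSeq (GRCm38.p6) gave promoter windows of 300 bases, from 250 before to 50 after the start, for 42 of the 48 genes. Some genes have several windows, and a gene was counted when any of its windows matched. The ETS word CCGGAAG, searched on both strands, was found for 20 of 42 genes (47.6%), 11 of 24 for the large subunit and 9 of 18 for the small one. It was found for 20.8% of the 9086 tested genes with a window, 9.93% of all 27025 genes with a window and 37.7% of 69 mitochondrial ribosomal protein genes. The POU word ATGCAAAT was found for 0 of 42 genes and 1.97% of all genes with a window, and the BCL6 word TTCCTAGAA for 0 of 42 and 0.474%, both on either strand. A C followed by at least 5 pyrimidines, with its C from 10 bases before to 30 after the start on the coding strand, was found for 28 of 42 genes (66.7%) against 30.7% of all genes with a window. A match is a string of letters and no measured site. The ETS word (capitals, in either orientation) is shown for Rpsa, Rpl37, Rps6 and Rpl38. Rpsa and Rpl37 passed the test in 1 comparison each without Bcl6b knockdown replicate 1, as given below. The windows are chr9:120127567-120127596 (+), chr15:5116579-5116608 (+), chr4:86857440-86857469 (-) and chr11:114668549-114668578 (+).
Rpsa: cgccccagctaCTTCCGGcctggggtctgt
Rpl37: accaagacccgCCGGAAGtagtttcctggg
Rps6: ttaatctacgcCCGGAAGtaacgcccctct
Rpl38: gggttaaccgtCCGGAAGcggaagcctcgt

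The pyrimidine run (capitals) is shown for Rps24, Rps6, Rps18 and Rpl35, to let a reader see the motif close to the start. Rps24 passed the test in 1 comparison without Bcl6b knockdown replicate 1, as given below. The windows are chr14:24490668-24490697 (+), chr4:86857348-86857377 (-), chr17:33955646-33955675 (-) and chr2:39005112-39005141 (-).
Rps24: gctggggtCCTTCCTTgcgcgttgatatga
Rps6: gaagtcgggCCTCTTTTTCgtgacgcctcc
Rps18: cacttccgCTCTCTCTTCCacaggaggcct
Rpl35: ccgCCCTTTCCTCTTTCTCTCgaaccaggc

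Each targeted gene fell in its own knockdown. Etv5 fell from 2969 ± 84.0 to 1099 ± 385 intensity units (SD, n = 4 each), Bcl6b from 1453 ± 83.1 to 721 ± 79.4 and Pou3f1 from 661 ± 21.8 to 415 ± 71.7, with limma's adjusted p of 0.0011, 1.67e-04 and 0.0010. Bcl6b also fell in the Etv5 knockdown, to 686 ± 142 (limma's adjusted p = 6.21e-05). The knockdown was uneven between arrays. On the Etv5 knockdown arrays Etv5 stood at 912, 912, 1676 and 898, and Bcl6b at 620, 618, 899 and 608. Pou3f1 stood at 393, 354, 519 and 393 in its own knockdown, so replicate 3 fell least in both groups. All 13 germ cell markers on the array were detected, with Dazl at 16637 ± 165 and Ddx4 at 6896 ± 178 in the control. All 12 fibroblast markers were detected as well, with Vim at 32923 ± 622 and Col1a1 at 6457 ± 429, and 2 of 7 Sertoli cell markers passed the filter, Rhox5 at 1757 ± 55.3 and Sox9 at 366 ± 15.1 in the control. The other 5, among them Amh (2.68) and Wt1 (8.39), did not. The fibroblast list includes Thy1, by which the germ cell fractions were taken, so Thy1 does not mark fibroblasts alone here. Ribosomal protein genes are active in every cell type, so the values below belong to the whole culture, and fewer cells of a type cannot be told apart from less RNA per cell. Bcl6b knockdown replicate 1 stood apart: the log2 difference between the 3' and 5' control probe sets of Gapdh was 1.03 there and between -0.53 and -0.45 on the other arrays, and it correlated with the rest at 0.975 on average, where all others reached 0.996 to 0.997. Results are given with and without it. Leaving it out took the median residual SD over tested genes from 0.134 to 0.0840 and so changed the calls of every comparison.

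Most ribosomal protein genes gave bright signals. In the control the 25 large subunit genes tested had a median intensity of 23067 (range 74.5 to 55518) and the 21 small subunit genes 24825 (range 88.6 to 63683), and 37 of 46 lay at 5000 or more. Signals of different probe sets depend on their probes and are not compared as amounts of messenger. In the large subunit the brightest probe sets were those of Rpl13a (55518 ± 634), Rplp0 (54812 ± 671) and Rpl4 (51936 ± 843). In the small subunit they were those of Rps29 (63683 ± 2449), Rps28 (52656 ± 1175) and Rps20 (48567 ± 486). The highest value of any array was 71511, so these lie near the top of the scale, and a limit of the signal there was not tested. The dimmest probe sets among tested genes were those of Rpl39 (74.5 ± 1.95), Rpl12 (114 ± 5.27), Rpl14 (312 ± 17.8), Rps27 (88.6 ± 0.712), Rps25 (636 ± 20.7) and Rps6 (676 ± 19.6).

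The values varied little between arrays of a group. The median residual SD over the 46 genes was 0.062 on the log2 scale with all arrays and 0.051 without Bcl6b knockdown replicate 1. Over all tested genes it was 0.13 and 0.084. The 776 other genes with a mean of 5000 or more had 0.090 and 0.052, so without that array the members' spread was close to that of other bright genes. Single genes ranged from 0.029 for Rps28 to 0.42 for Rpl27a with all arrays.

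The knockdown of Etv5 left the ribosomal protein genes close to the control. The median log2 difference over the genes was 0.0099 for the large subunit and 0.012 for the small subunit, beside -0.026 over all 11145 tested genes. By array, the large subunit median (over genes, relative to the control mean) was 0.0068, -0.043, 0.039 and 0.027, and that of the small subunit 0.0034, -0.0093, 0.023 and -0.00077. The control arrays themselves lay between -0.013 and 0.016 for the large subunit and between -0.012 and 0.019 for the small one. Etv5 knockdown replicate 2 was below the control arrays in the large subunit and replicates 3 and 4 above them. The genes with the ETS word in the promoter window had a median of 0.011 (20 genes) and those without it 0.0093 (20 genes).

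The medians in the Bcl6b knockdown were 0.021 for the large and -0.0035 for the small subunit, beside -0.010 over all genes. Without replicate 1 they were -0.0063 and -0.035, beside -0.042 over all genes. The large subunit median by array was 0.098 in replicate 1 and -0.043, 0.015 and -0.014 in replicates 2 to 4. The small subunit median was -0.018 in replicate 1 and -0.038, -0.016 and -0.019 in the others, all 4 below the control arrays. The median over all tested genes was 0.078 in replicate 1 and -0.064, -0.026 and -0.031 in the others. On replicates 2 to 4 the small subunit thus lay above the median of all genes. These are the positions of a list and carry no test.

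In the Pou3f1 knockdown both subunits lay lower, at -0.039 (large) and -0.041 (small), beside -0.024 over all genes. Of the 46 genes, 34 had a negative difference, as did 6585 of the 11145 genes tested. One array set the size: replicate 4 had -0.11 in each subunit, while replicates 1 to 3 lay between -0.018 and -0.0054 (large) and between -0.022 and -0.00072 (small). That array was the lowest of its group for 30 of 46 genes and the highest for 12, and the lowest for 41.9% of all genes tested. Without it the medians were -0.017 and -0.019, beside -0.010 over all genes.

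**Figure D1:**
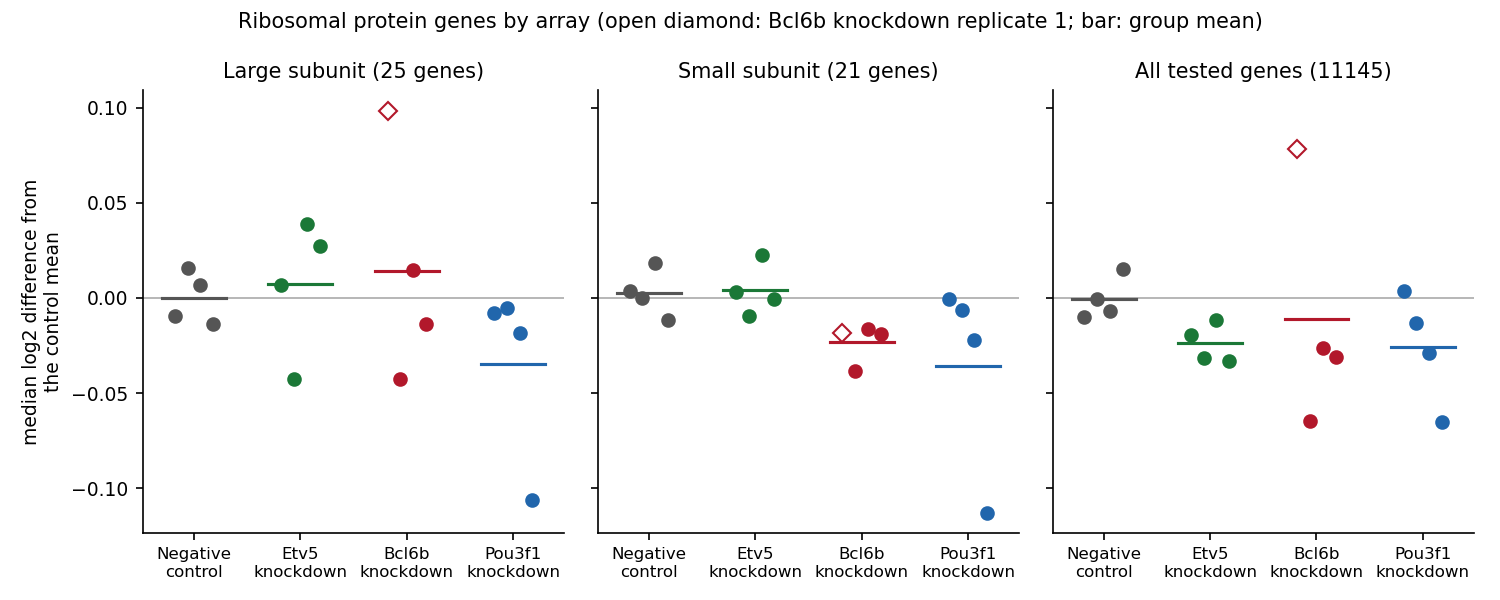
Median log2 difference from the control mean, 1 point per array, for the large subunit genes, the small subunit genes and all tested genes; horizontal bars are group means over 4 arrays and the open diamond is Bcl6b knockdown replicate 1. Most arrays lie within 0.05 of 0, and Pou3f1 knockdown replicate 4 is lowest in both subunits at -0.11.

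With all 16 arrays, 0 of 46 ribosomal protein genes passed limma's test at an adjusted p under 0.05 in any knockdown against the control. The share of all tested genes that passed was 2.09% for the Etv5, 3.21% for the Bcl6b and 2.25% for the Pou3f1 knockdown. At an unadjusted p under 0.05, limma gave 2 of 46 genes in the Etv5, 9 in the Bcl6b and 5 in the Pou3f1 knockdown, against 11.0%, 19.6% and 12.2% of all tested genes. For the Bcl6b and Pou3f1 knockdowns these counts (19.6% and 10.9% of the members) were near the background.

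All 4 arrays of the Etv5 knockdown lay beyond all 4 control arrays for 8 of 46 genes, 17.4% against 17.3% of all tested genes. Rpl35, Rpl37, Rps18 and Rpsa were the higher ones, and Rpl12, Rpl7l1, Rps25 and Rps28 the lower ones. The count was 7 in the Bcl6b knockdown (15.2% against 14.7%), with Rpl37 and Rpsa higher and Rpl6, Rplp0, Rps10, Rps26 and Rps3 lower. It was 6 in the Pou3f1 knockdown (13.0% against 18.1%), with Rpl37 higher and Rpl19, Rpl6, Rps26, Rps3 and Rps4x lower. All 3 knockdowns were set against the same 4 control arrays. The shares were close to or below those of genes in general.

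The arrays bounded most changes tightly. The 95% interval of the difference lay within a 1.25-fold change in either direction for 40 genes in the Etv5, 38 in the Bcl6b and 40 in the Pou3f1 knockdown (87.0%, 82.6% and 87.0% of the 46). Of all tested genes 58.1%, 50.2% and 57.0% were bounded as tightly. Without Bcl6b knockdown replicate 1 the counts were 44, 44 and 42 (95.7%, 95.7% and 91.3% of the members). The shares of all tested genes then rose to 80.3%, 75.4% and 79.6%. The genes with the widest intervals were Rpl27a, Rps25, Rpl14, Rps6 and Rps9.

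**Figure D2:**
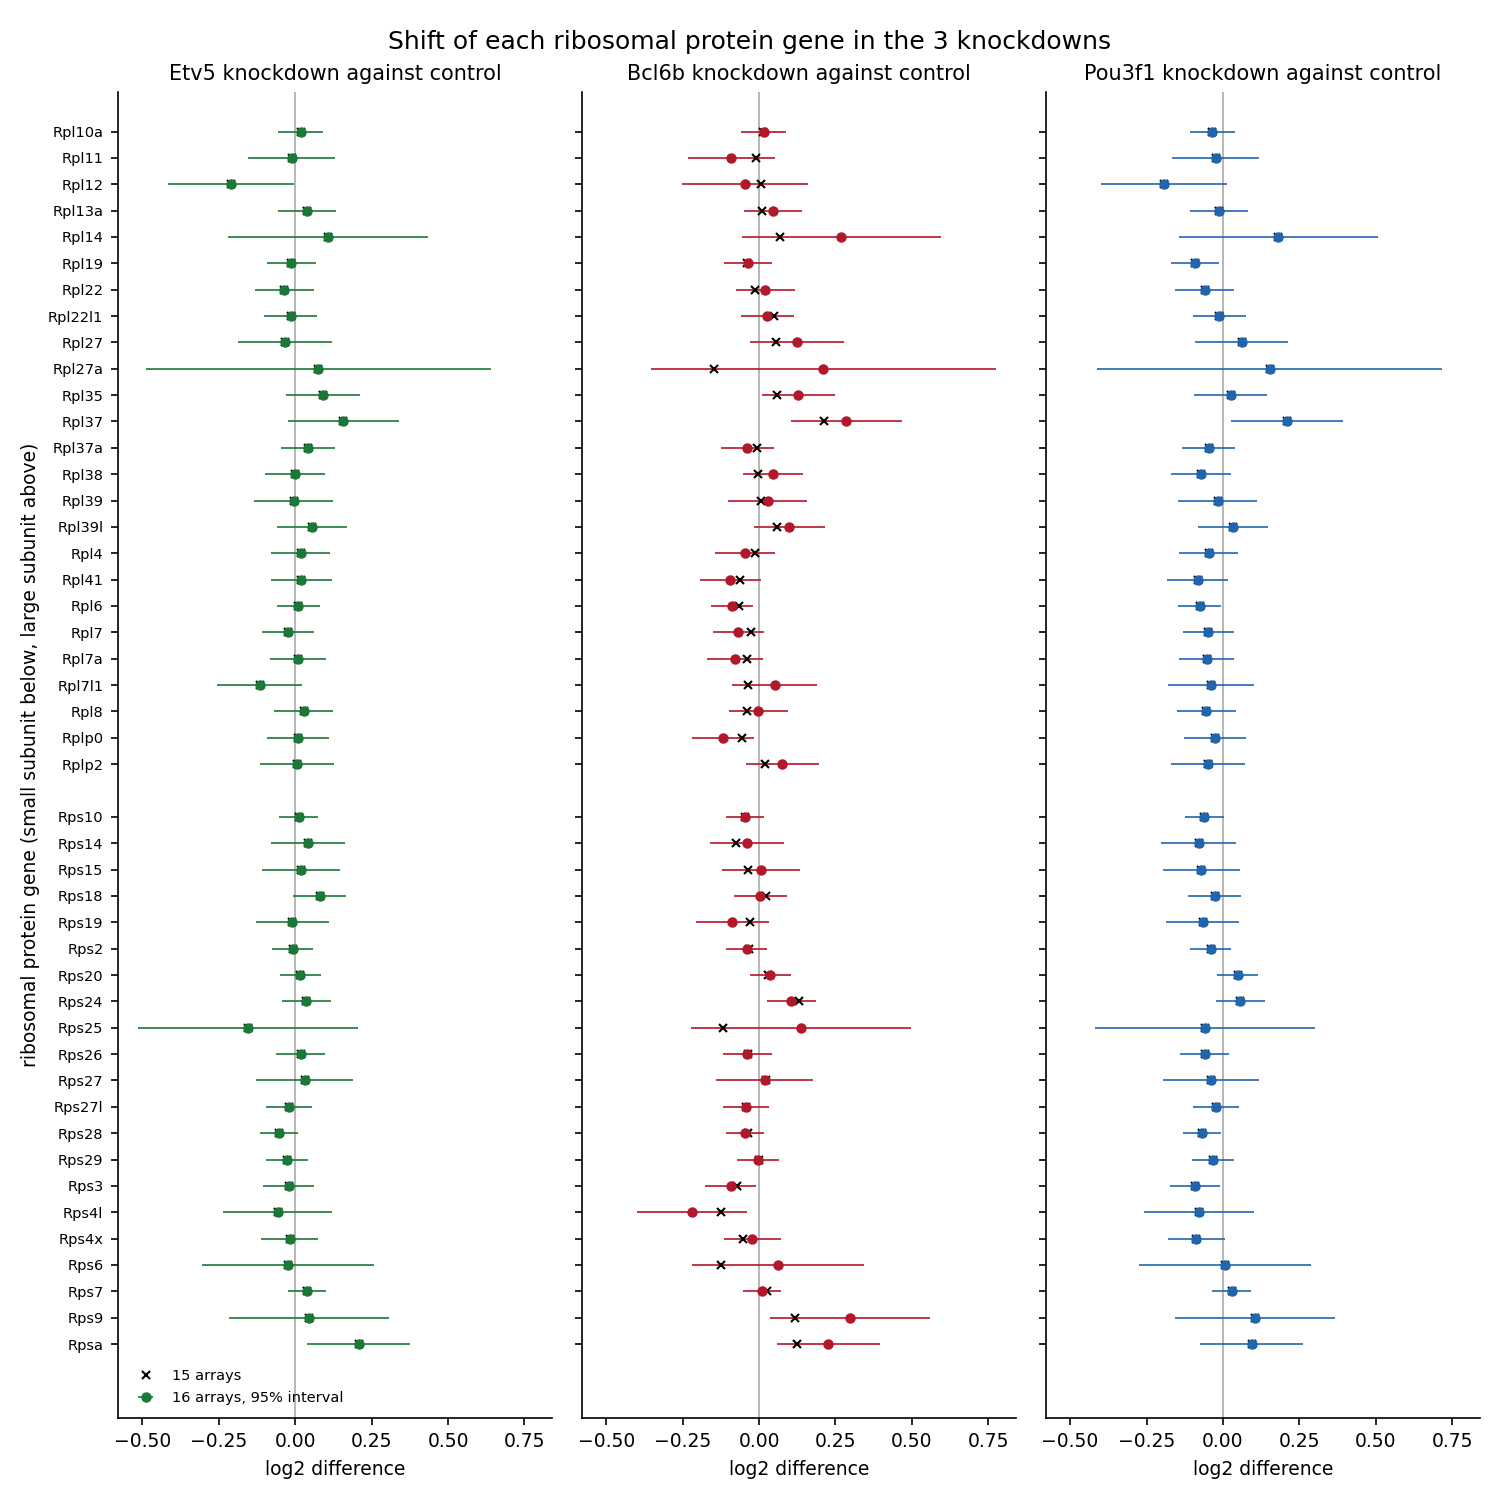
Log2 difference of each of the 46 tested ribosomal protein genes in each knockdown against the control, with all 16 arrays (points, with 95% intervals from limma) and without Bcl6b knockdown replicate 1 (crosses, which coincide with the points outside the Bcl6b panel). Differences gather around 0, and the widest intervals are those of Rpl27a and Rps25.

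Without Bcl6b knockdown replicate 1, 4 of the 46 genes passed limma's test, each in 1 knockdown. They were Rpsa and Rpl7l1 in the Etv5 knockdown (2 of 46, against 9.52% of all 11121 genes tested), Rps24 in the Bcl6b knockdown (1 of 46, against 11.0%) and Rpl37 in the Pou3f1 knockdown (1 of 46, against 11.4%). As shares of the members these were 4.35%, 2.17% and 2.17%, below the background in each case. At an unadjusted p under 0.05 there were 7, 8 and 13 genes, against 24.8%, 26.2% and 26.8% of all genes. Groups lay apart for 8, 8 and 6 genes, against 17.3%, 27.5% and 18.1%. None of the 4 changed by more than 0.21 on the log2 scale.

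Rpsa encodes a small subunit protein that is also known as the laminin receptor. Its intensity was 18796, 18837, 18977 and 18210 on the control arrays and 21545, 20298, 22446 and 22178 in the Etv5 knockdown. All 4 knockdown arrays lay above all 4 control arrays. The log2 difference was 0.21 ± 0.043 (SE), with limma's adjusted p = 0.0042 without Bcl6b knockdown replicate 1 and 0.29 with it. Rpsa stood at 27081 on Bcl6b knockdown replicate 1 and at 19121, 21134 and 20970 on the others of that group, all above the control, with a difference of 0.12 and limma's adjusted p = 0.091 without replicate 1. In the Pou3f1 knockdown it was 20984, 20031, 20549 and 18410, overlapping the control.

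Rpl7l1, a paralogue of Rpl7 known mainly for a part in making the large subunit, fell in the Etv5 knockdown. It was 2648, 2746, 2692 and 2742 in the control and 2495, 2502, 2507 and 2488 after the knockdown, and the groups did not overlap. The log2 difference was -0.12 ± 0.031 (SE), with limma's adjusted p = 0.022 without Bcl6b knockdown replicate 1 and 0.57 with it. Both other probe sets of the gene gave negative differences too, -0.18 and -0.096. In the Bcl6b knockdown the probe sets disagreed: the chosen one gave 0.051 with all arrays and -0.037 without replicate 1, and the next brightest -0.48 and -0.22. The chosen one read 3368 on replicate 1 and 2581 to 2702 on the others, and in the Pou3f1 knockdown 2576 to 2745.

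Rps24, a small subunit protein gene mutated in some patients with Diamond-Blackfan anaemia, was higher in the Bcl6b knockdown. It was 32825, 32276, 34076 and 32570 in the control and 33736, 37325, 33768 and 37053 in the knockdown. Replicates 2 and 4 were above all control arrays, and replicates 1 and 3 lay under the highest of them, so the groups overlapped. The difference without replicate 1 was 0.13 ± 0.034 (SE), with limma's adjusted p = 0.022, and with it 0.11, adjusted p = 0.14. The gene has 6 probe sets, and 3 others as bright gave 0.049, 0.0010 and 0.074 without replicate 1. With each array centred on its median, the Rps24 difference without replicate 1 was 0.052, with limma's adjusted p = 0.29.

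Rpl37, a large subunit protein gene, was higher in the Pou3f1 knockdown. It was 1793, 1676, 1656 and 1674 in the control and 1837, 1900, 1867 and 2287 in the Pou3f1 knockdown, with replicate 4 the highest. The log2 difference was 0.21 ± 0.066 (SE), with limma's adjusted p = 0.047 without Bcl6b knockdown replicate 1 and 0.32 with it. In the Etv5 knockdown it was 1801, 1925, 1844 and 2019 and in the Bcl6b knockdown 2419, 2194, 1841 and 1883, above the control on every array. Without Pou3f1 knockdown replicate 4 the difference was 0.14, with limma's adjusted p = 0.69 over the remaining 15 arrays. The Etv5 and Bcl6b differences were 0.16 and 0.21 without replicate 1, with limma's adjusted p = 0.14 and 0.064. With array weights Rpl37 passed in the Bcl6b and Pou3f1 knockdowns, at 0.18 and 0.17 (limma's adjusted p = 0.022 and 0.034). With only the compared groups fitted it passed in the Etv5 knockdown (limma's adjusted p = 0.043). The probe sets used for Rpl37 and Rps24 are of the type (_x_at) whose probes may also match other transcripts. Of the probe sets chosen for the 48 members, 16 are of this type, among them those of Rpl7, Rps27l, Rpl13a, Rps29 and Rps20. The 1 of the similar _s_at type is that of Rpl22. Values of such members may include other transcripts.

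**Figure D3:**
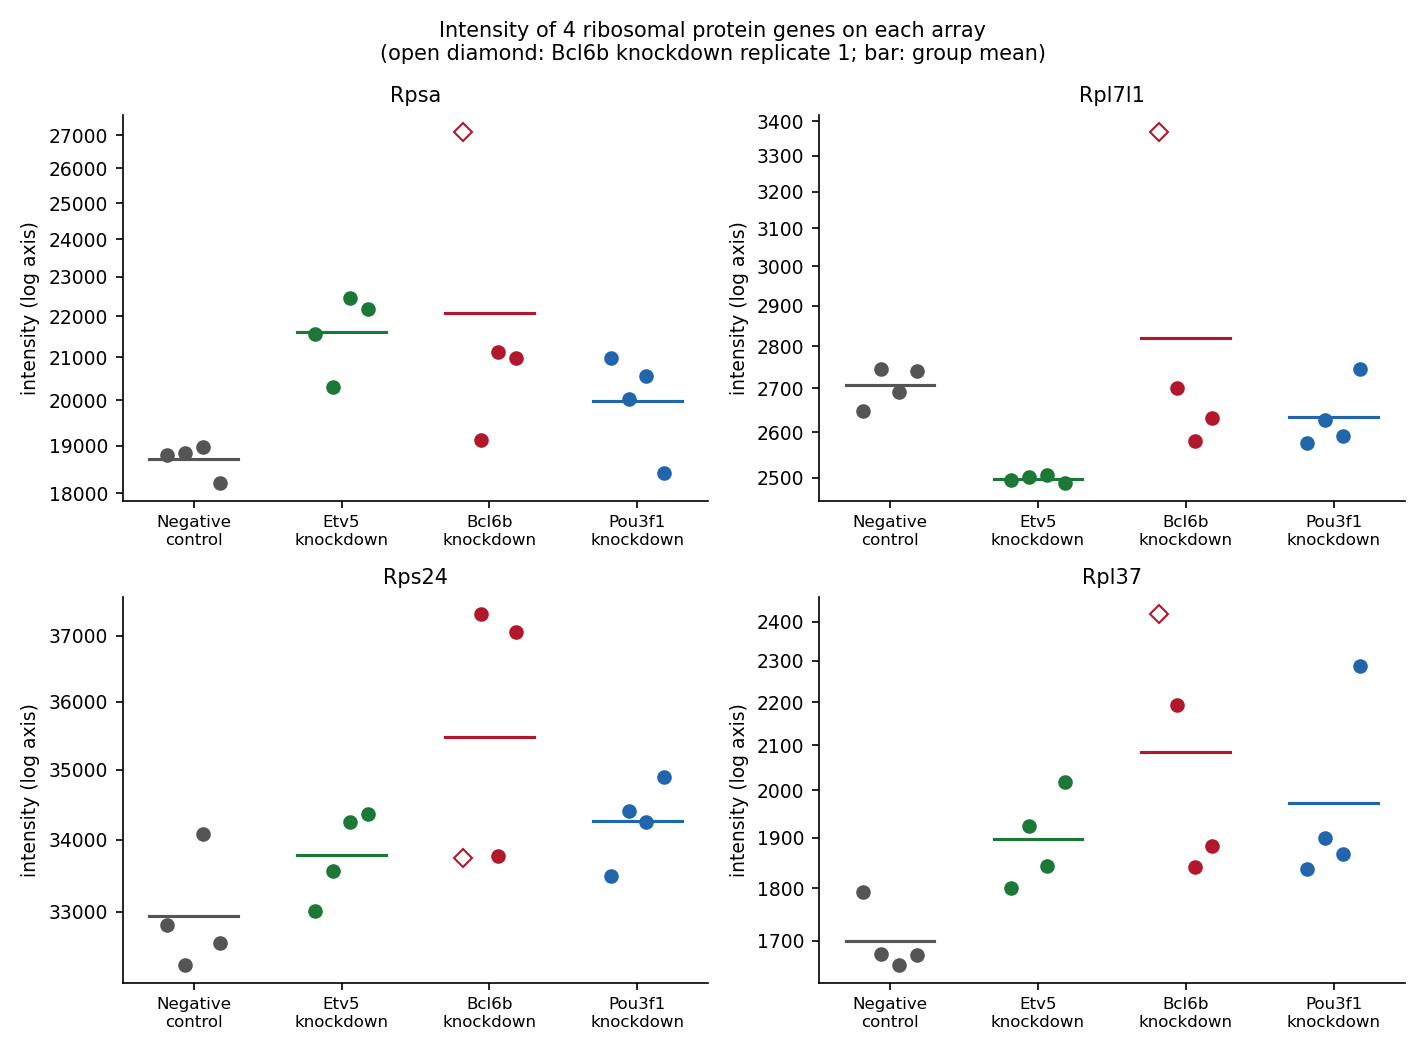
Intensity (log axis) of Rpsa, Rpl7l1, Rps24 and Rpl37 on each array by group; bars are means over 4 arrays and the open diamond is Bcl6b knockdown replicate 1. Rpl7l1 lies between 2488 and 2507 on all Etv5 knockdown arrays, below every control array, and replicate 1 of the Bcl6b knockdown is the highest array for Rpsa, Rpl7l1 and Rpl37.

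Centring each array on its median changed the calls in the Bcl6b knockdown. Combined with leaving out replicate 1, a setting added after the data were seen, it gave 0 genes higher and 10 lower by limma (3 large, 7 small subunit), where the deposited scale gave 1 higher and 0 lower. The 10 were Rpl6, Rpl7l1, Rplp0, Rps10, Rps25, Rps27l, Rps28, Rps3, Rps4l and Rps6. Over all genes the same centring gave 285 higher and 2683 lower, where the deposited scale gave 454 and 764. It moved the median of all genes from -0.042 to -0.12, with the subunit medians at -0.083 and -0.11. Centring moves every gene of an array by the same amount, set by that array's median over all probe sets. That median was 17.1, 16.7 and 16.6 intensity units on Bcl6b knockdown replicates 2 to 4 and 15.6 to 16.3 on the control arrays. With all 16 arrays the centring gave 0 members higher and 2 lower (Rpl6 and Rplp0) and 126 genes higher and 617 lower, against 184 and 174.

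Bcl6b knockdown replicate 1 differed from the other 3 arrays of its group by over 0.3 on the log2 scale for 9 of 46 genes (19.6%), against 55.2% of all genes tested and 43.4% of other genes of 5000 or more. Of the 9, 7 were higher there: Rpl27a (1.44), Rps25 (1.02), Rpl14 (0.81), Rps6 (0.76), Rps9 (0.72), Rpsa (0.41) and Rpl7l1 (0.35). Rps4l (-0.38) and Rpl11 (-0.32) were lower. Among members under 5000 intensity units 5 of 9 moved by over 0.3, and among the brighter ones 4 of 37. The median over the 46 genes was 0.0074, beside 0.12 over all genes. The part of RNA quality in these shifts was not tested.

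**Figure D4:**
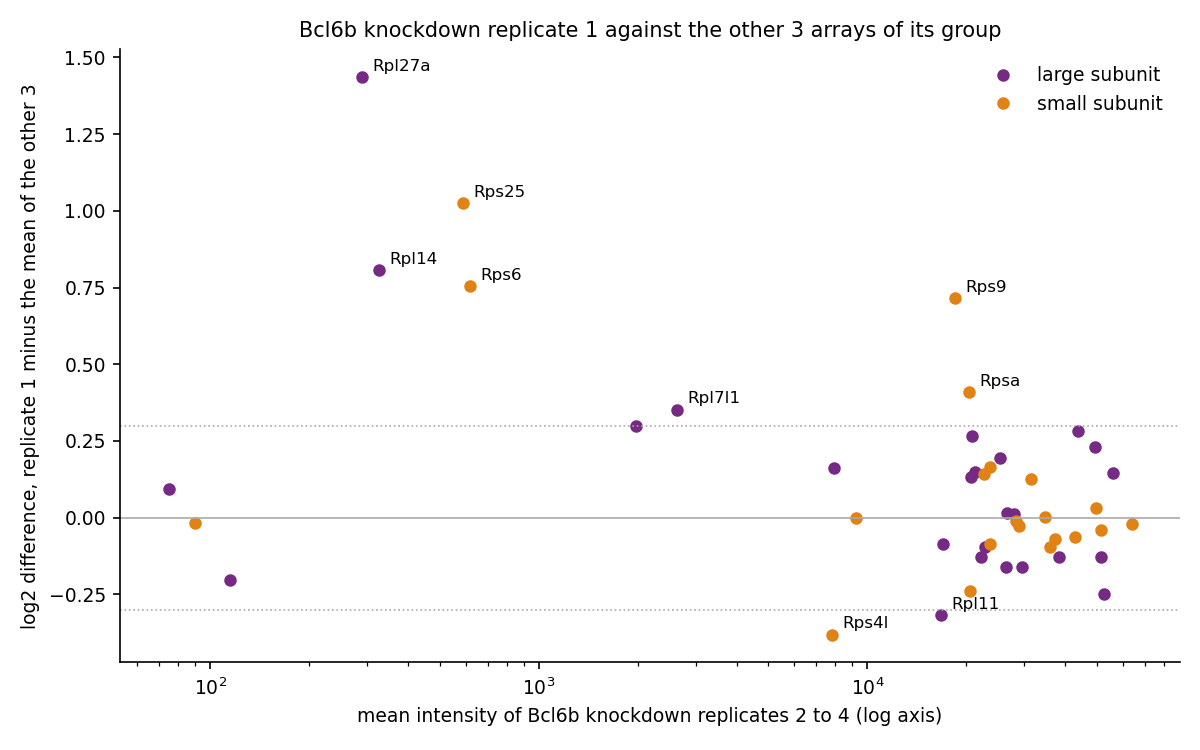
Log2 difference of Bcl6b knockdown replicate 1 from the mean of the other 3 arrays of its group (y axis), against that mean intensity (x axis, log scale), 1 point per ribosomal protein gene; dotted lines mark 0.3 in either direction. The named genes lie beyond the lines, with Rpl27a highest at 1.44 and Rps4l lowest at -0.38.

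Among genes with roles beyond the ribosome's core, no member passed in the main fit. That fit used all 16 arrays without array weights, on the deposited scale and from the brightest probe set. Rplp0 in the Bcl6b knockdown passed with median centring (above). With array weights Rpsa passed in every knockdown, at 0.21 in the Etv5, 0.15 in the Bcl6b and 0.11 in the Pou3f1 knockdown. Limma's adjusted p was 2.30e-04, 0.0046 and 0.033. Rpsa also passed in the Bcl6b knockdown with the mean over probe sets and in the Etv5 knockdown with only the compared groups fitted. Rplp0 and Rplp2 encode proteins of the stalk, which recruits translation factors. Rplp0 was 54299 to 55784 in the control and 44392, 52601, 53484 and 51996 in the Bcl6b knockdown, lower on all 4 arrays. The difference was -0.12, with limma's adjusted p = 0.19, and -0.057 without replicate 1, with limma's adjusted p = 0.20. Rplp2 was 48280 to 49133 in the control and 57973, 48863, 49327 and 49981 in that knockdown, and its differences were 0.076 with replicate 1 and 0.018 without.

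Rps6 is the substrate of the S6 kinases downstream of mTOR. Its probe set read 658 to 697 in the control, 633 to 704 in the Etv5 knockdown and 628 to 760 in the Pou3f1 knockdown, all overlapping. In the Bcl6b knockdown replicate 1 stood at 1045 and the others at 612, 612 and 633, which turned the difference from 0.063 with all arrays to -0.13 without replicate 1. Limma's adjusted p was 0.81 and 0.18. Rpl11, which binds Mdm2 when ribosome assembly fails, was 16256 to 17519 in the control and its differences were -0.012, -0.090 and -0.024 in the Etv5, Bcl6b and Pou3f1 knockdowns. Rps19, another Diamond-Blackfan anaemia gene, gave -0.0089, -0.088 and -0.067. Limma's adjusted p with all 16 arrays was 0.38 or more for both genes.

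Several members are paralogues that can replace one another in ribosomes. Rpl39l, a paralogue of Rpl39 active in male germ cells, was 7387 to 7731 in the control, 7608 to 8101 in the Etv5, 7201 to 8815 in the Bcl6b and 7330 to 8116 in the Pou3f1 knockdown. All groups overlapped, with differences of 0.055, 0.099 and 0.033. Rpl39 itself was dim, at 72.9 to 77.2 in the control, and its differences lay between -0.017 and 0.028. Rpl22 and its paralogue Rpl22l1 were 20627 to 21104 and 15905 to 16679 in the control, and their differences lay between -0.059 and 0.027 in the 3 knockdowns.

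Rps27l, a paralogue of Rps27 that p53 induces, was 9144 to 9950 in the control and its differences were -0.019, -0.044 and -0.022. Rps27 gave 0.031, 0.018 and -0.039. Rps4x, the X-linked Rps4, was 32126 to 33228 in the control and 31855, 31935, 31377 and 28272 in the Pou3f1 knockdown, lower on all 4 arrays, with a difference of -0.088 and limma's adjusted p = 0.45. Its paralogue Rps4l was 8132 to 8784 in the control and 5978, 7252, 8181 and 7947 in the Bcl6b knockdown. That difference was -0.22 with all arrays and -0.12 without replicate 1, with limma's adjusted p = 0.17 and 0.19. Rpl7 was 29867 to 30419 in the control, with differences of -0.023, -0.068 and -0.047. None of these paralogues passed on the deposited scale apart from Rpl7l1.

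Comparing the knockdowns with one another, limma called 0 of 46 genes for Etv5 against Bcl6b, Etv5 against Pou3f1 and Bcl6b against Pou3f1, while 1.49%, 1.44% and 2.18% of all tested genes passed. At an unadjusted p under 0.05 there were 5, 7 and 2 genes (of all tested genes 14.3%, 9.04% and 15.6%). The arrays of both groups lay apart for 3, 3 and 0 genes, against 7.76%, 10.2% and 9.42% of all tested genes. The count by limma was again 0 in each without Bcl6b knockdown replicate 1, beside 4.51%, 6.38% and 5.13%, with 6, 12 and 2 at an unadjusted p under 0.05. Groups then lay apart for 6, 3 and 0 genes, against 15.2%, 10.2% and 16.3%. The smallest limma adjusted p of any member there was 0.059, for Rpl6 between the Etv5 and Pou3f1 knockdowns, with a difference of 0.087. With each array centred on its median and all 16 arrays, Rpl6 passed between the Etv5 and Bcl6b knockdowns, with 0.15 and limma's adjusted p = 0.050. Without Bcl6b knockdown replicate 1 and on the same scale Rpl6, Rplp0 and Rps10 passed there. These were 1 and 3 of 46 members, beside 259 of 11145 and 1130 of 11121 genes. With array weights on the deposited scale, Rplp0, Rps14 and Rps24 passed between the Etv5 and Bcl6b knockdowns, and Rpl12 between the Bcl6b and Pou3f1 knockdowns. Rps24 gave -0.10 there (Etv5 minus Bcl6b knockdown, limma's adjusted p = 0.045). The share of all genes that passed between knockdowns with array weights is not given here. On the deposited scale without array weights, the calls of Rpsa, Rpl7l1, Rps24 and Rpl37 in 1 knockdown each were not shown to differ between knockdowns.

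Probe sets assigned to several genes, 110 in all, cover the ribosomal protein symbols that could not be named. The 103 of them above the filter had a median difference of 0.013 in the Etv5, 0.011 in the Bcl6b and -0.035 in the Pou3f1 knockdown. The 92 of 104 probe sets of the 48 members above the filter gave 0.0098, -0.0022 and -0.045. Fau and Rps3a1, ribosomal protein genes whose names fall outside the rule, did not pass in any knockdown. Fau gave 0.15, 0.071 and 0.056, with limma's adjusted p of 0.39 or more, and Rps3a1 0.014, -0.049 and -0.041.

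Other messengers with TOP motifs, mostly translation factors, shifted little in the median (0.013, -0.049 and -0.012). Of 19 tested, limma called only Vim, in each knockdown, with 0.33, 0.29 and 0.35 and adjusted p of 0.0019, 0.0034 and 9.67e-04. The share of all tested genes called was 2.09%, 3.21% and 2.25%. Vim, an intermediate filament gene, also belongs to the fibroblast markers, whose summed level was 177630 to 179526 in the control, 185510 to 194902 in the Etv5, 178184 to 188547 in the Bcl6b and 179957 to 185281 in the Pou3f1 knockdown. That sum includes Thy1, and also Vim itself, at 32923 in the control and 41344, 40414 and 42180 in the Etv5, Bcl6b and Pou3f1 knockdowns. The median difference over the 12 fibroblast markers was 0.027, -0.033 and -0.045, with 3, 10 and 7 of them negative. The part of the cell mix in the Vim change was not tested. Eef1a1 and Eef2, the elongation factors, gave -0.011 and 0.00013 in the Etv5 knockdown, -0.12 and -0.061 in the Bcl6b and -0.057 and -0.11 in the Pou3f1 knockdown, and neither passed. Eef1d, an elongation factor subunit, rose by 0.16 in the Etv5 knockdown without Bcl6b knockdown replicate 1 (limma's adjusted p = 0.0071). With Vim that made 2 of 19 genes, beside 9.52% of all tested genes.

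Genes that build ribosomes are given beside the shares of all tested genes. Of 49 ribosome biogenesis genes, limma called 0 in every knockdown, with 1, 2 and 1 at an unadjusted p under 0.05. The medians were -0.025, -0.0078 and -0.020 in the Etv5, Bcl6b and Pou3f1 knockdowns. Of all tested genes, limma called 2.09%, 3.21% and 2.25%, and 11.0%, 19.6% and 12.2% had an unadjusted p under 0.05. Fbl, the methyltransferase of ribosomal RNA, gave 0.0066, 0.034 and -0.047. Of 15 genes for RNA polymerase I and its factors limma called 0 in every knockdown, with 1, 1 and 2 at an unadjusted p under 0.05. The same shares of all tested genes apply. Without Bcl6b knockdown replicate 1, limma called 1, 1 and 3 of the 49 biogenesis genes, beside 9.52%, 11.0% and 11.4% of all tested genes. Ltv1, which helps to mature the small subunit, rose by 0.15 in the Etv5 knockdown, and Utp18 and Riok1, also of small subunit assembly, rose by 0.15 and 0.16 in the Pou3f1 knockdown (limma's adjusted p = 0.031, 0.036 and 0.047). Mybbp1a, a nucleolar repressor, fell by 0.17 in the Bcl6b and by 0.16 in the Pou3f1 knockdown (limma's adjusted p = 0.038 and 0.040). Of the 15 genes of the polymerase I list, limma then called 0, 0 and 1, beside the same shares of all genes. At an unadjusted p under 0.05 limma gave 2, 1 and 6, beside 24.8%, 26.2% and 26.8% of all tested genes. The 1 called was Taf1d, which rose by 0.23 in the Pou3f1 knockdown (limma's adjusted p = 0.028).

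The mitochondrial ribosomal protein genes, a related family, had medians of -0.046, -0.030 and -0.045 over 76 genes tested. Limma called 0, 1 and 0 of them, with 2, 14 and 5 at an unadjusted p under 0.05. The 1 was Mrpl16, which fell by 0.24 in the Bcl6b knockdown (limma's adjusted p = 0.044). Of all tested genes, limma called 2.09%, 3.21% and 2.25%, and 11.0%, 19.6% and 12.2% had an unadjusted p under 0.05. Of the 76, 59 had a negative difference in the Etv5, 43 in the Bcl6b and 58 in the Pou3f1 knockdown. For the cytoplasmic family these were 19, 22 and 34 of 46, and over all 11145 genes 6738, 5897 and 6585. The difference between the families was not tested. Without Bcl6b knockdown replicate 1 limma called 4, 4 and 0 of the 76 mitochondrial genes, all lower. In that fit 9.52%, 11.0% and 11.4% of all tested genes passed.

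Genes that control ribosome production included a few that passed. Of 17 tested, limma called in the Etv5 knockdown Mycl, a Myc family gene, which rose by 0.82 ± 0.17 (SE, adjusted p = 0.017). It was dim, at 10.5 to 11.3 in the control and 15.9 to 30.9 in the knockdown. Only its 4 Etv5 knockdown arrays lay above their array's median, so it was tested only because it was high in that group, and its call supports nothing. Larp1, the TOP-binding protein, fell in the Pou3f1 knockdown by 0.23 ± 0.051 (SE, limma's adjusted p = 0.026). In the Bcl6b knockdown 0 of 17 passed by limma, with 4 at an unadjusted p under 0.05. Of all tested genes, 2.09%, 3.21% and 2.25% passed in the Etv5, Bcl6b and Pou3f1 knockdowns. In the Bcl6b knockdown 19.6% of them had an unadjusted p under 0.05.

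Larp1 was 2024, 1966, 2052 and 1994 on the control arrays. It was 1834, 1742, 1767 and 1831 in the Etv5, 2025, 1665, 1871 and 1811 in the Bcl6b and 1690, 1690, 1739 and 1728 in the Pou3f1 knockdown. Every knockdown array but Bcl6b replicate 1 lay under all control arrays. Without that array Larp1 passed in all 3 knockdowns, at -0.16, -0.17 and -0.23, with limma's adjusted p of 0.0092, 0.010 and 5.39e-04.

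Rptor, the scaffold of mTOR complex 1, fell in the same fit by 0.22 in the Bcl6b and by 0.23 in the Pou3f1 knockdown (limma's adjusted p = 0.027 and 0.012), and in the Etv5 knockdown gave -0.063 (limma's adjusted p = 0.53). It was 350 to 386 in the control, 315 to 322 on Bcl6b replicates 2 to 4 but 434 on replicate 1, and 299 to 328 in the Pou3f1 knockdown. Mtor, the kinase, fell by 0.15 in the Bcl6b knockdown (limma's adjusted p = 0.045). Myc, which drives ribosome production, was 144 to 161 in the control and 123 to 137 in the Pou3f1 knockdown, and fell by 0.25 there (limma's adjusted p = 0.013). Myc in the Bcl6b knockdown was 115 to 136, also under every control array, and did not pass. Its difference there was -0.19 in the same fit (limma's adjusted p = 0.071) and -0.25 with all 16 arrays (limma's adjusted p = 0.075). Rps6kb2, an S6 kinase, fell by 0.28 in the Etv5 knockdown (limma's adjusted p = 0.016). With all 16 arrays none of the falls of Rptor, Mtor, Myc and Rps6kb2 passed. Without Bcl6b knockdown replicate 1, 3 of the 17 genes passed in each knockdown, Mycl among those in the Etv5 knockdown, beside the 9.52%, 11.0% and 11.4% of all genes given above.

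**Figure D5:**
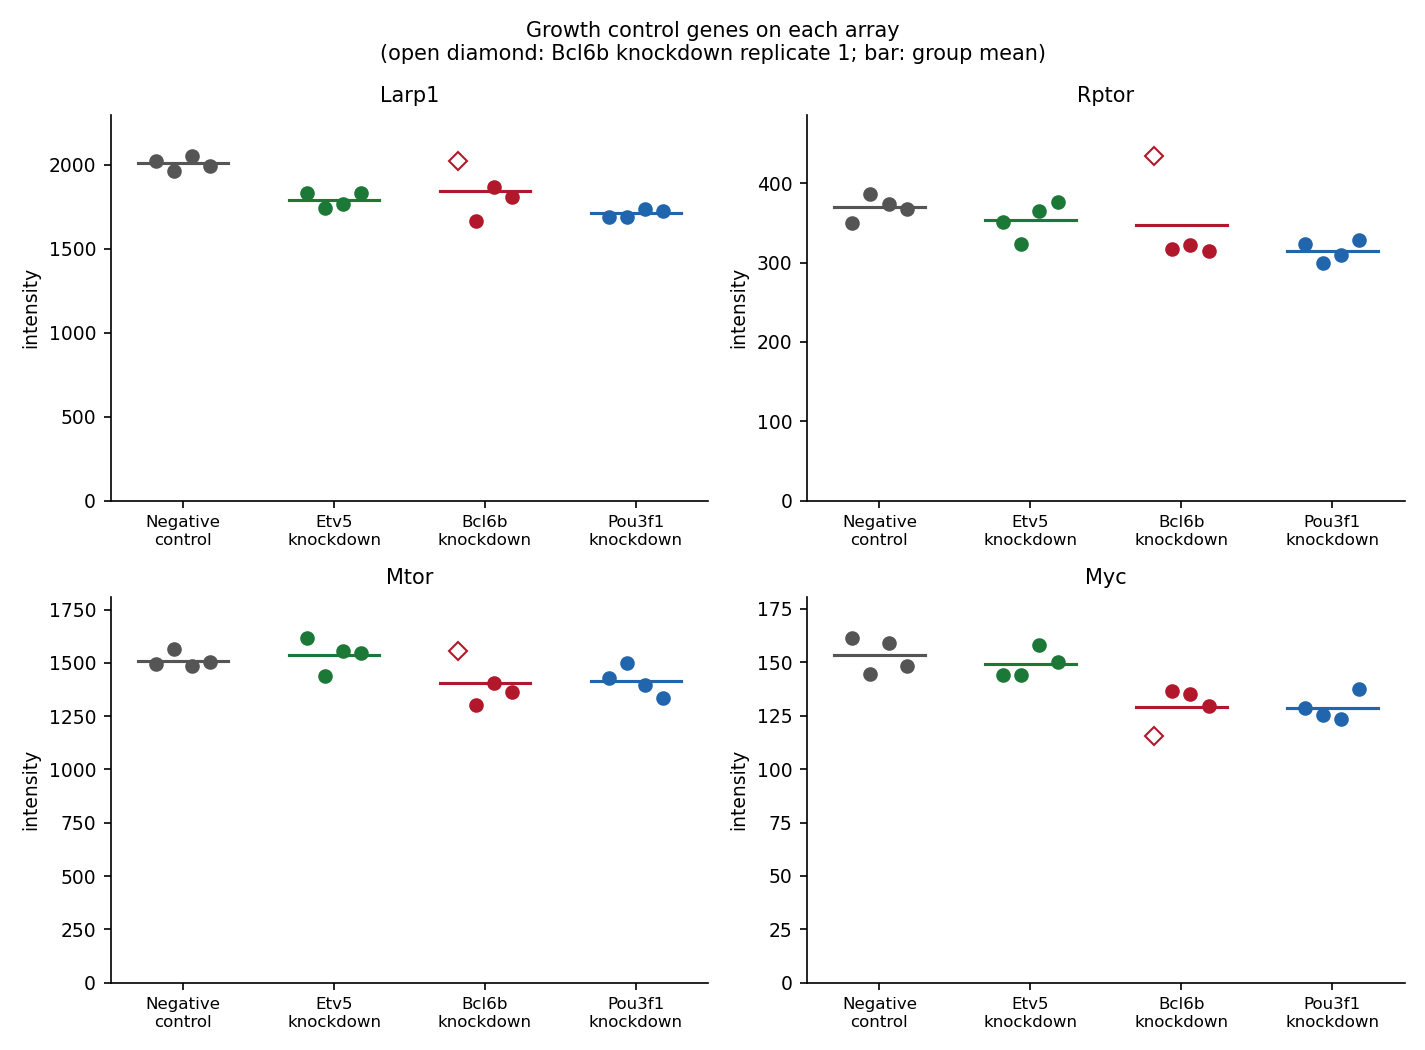
Intensity of Larp1, Rptor, Mtor and Myc on each array by group, with axes from 0; bars are means over 4 arrays and the open diamond is Bcl6b knockdown replicate 1. Larp1 lies between 1966 and 2052 in the control and between 1690 and 1739 in the Pou3f1 knockdown.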

How the data were processed

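The members and gene lists were chosen with earlier results of these data known. Per the labels, RNA of 16 samples was hybridised to Affymetrix mouse whole-genome arrays, and the authors deposited linear intensity values per probe set. Affymetrix Expression Console 1.1, Partek 6.4, MAS5 and GCRMA appear in the submitters' processing notes; the one behind these values is not stated there. Log2 values were computed here from the deposited intensities after adding a pseudocount of 1. Probe sets assigned to several genes were left out, each gene kept its brightest probe set, and genes above their array's median on at least 4 arrays were tested. Differences were fitted over all 4 groups and tested two-sided with limma 3.58.1 (R 4.3.3) with Benjamini-Hochberg adjustment over all genes at 0.05. The fit was also run on simulated data with the spread seen without Bcl6b knockdown replicate 1. The simulation held no outlying array and its planted changes were larger than those of the called members. It therefore cannot show how the fit handles either. Figures and tables used Python 3.11.15 and matplotlib 3.10.9. The number of arrays limits the precision. Members named were those called, stalk and signalling members, paralogues with their parents, and the 3 brightest and 3 dimmest of each subunit; of other lists, up to 3 called genes. Other genes named, and the promoters shown, were chosen after their values were seen. Most same-numbered samples did not deviate together: 5 of 24 pairs had a correlation over 0.1 (range -0.26 to 0.20), so no block was used. The pairs over 0.1 were Bcl6b with Etv5 knockdown replicate 2 and otherwise pairs of replicate 3 arrays. Shared handling of these was not tested. Alternatives covered normalization, pseudocount, filter, probe set choice, array weights, a replicate block and each array left out. Columns with no sample numbered 0.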

Additional observations from a re-analysis of the deposited data

Results flagged for a closer look

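In groups of 4 arrays, a value was listed when the gap between the highest or lowest array and its neighbour exceeded 0.829 of the group's range. Of 112 group values checked, 16 did so, 6 of them on Bcl6b knockdown replicate 1. Chance lists about 1 in 20 groups.

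On Bcl6b knockdown replicate 1, Rpl14 stood at 572 (others 318 to 339), Rpl7l1 at 3368 (2581 to 2702), Rplp2 at 57973 (48863 to 49981), Rps25 at 1192 (547 to 623) and Rps6 at 1045 (612 to 633). Rplp0 was low there, at 44392 (51996 to 53484).

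On Pou3f1 knockdown replicate 4, the large subunit median was -0.11 on the log2 scale (others -0.018 to -0.0054). Rpl11 was 15424 (16944 to 17045), Rpl13a 50519 (56185 to 57250), Rpl4 45870 (51592 to 52024) and Rps4x 28272 (31377 to 31935), all low, and Rpl37 was high at 2287 (1837 to 1900).

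In the control, replicate 1 was high for Rpl37, at 1793 (1656 to 1676), and low for Rps27, at 87.6 (88.8 to 89.1). Etv5 knockdown replicate 2 was low for Rplp0, at 52699 (55857 to 56336). The small subunit median of Bcl6b knockdown replicate 2 was -0.038 (others -0.019 to -0.016).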

How the results depend on the processing

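The count of ribosomal protein genes called by limma, 0 in each knockdown with all 16 arrays, moved under some settings. In the Etv5 knockdown it was 4 with array weights, 4 with only the compared groups fitted (of all genes, 1662 of 11145 and 994 of 11076), and 2 without Bcl6b knockdown replicate 1 on the median-centred, quantile-normalized and deposited scales (788, 1118 and 1059 of 11121). In the Bcl6b knockdown it was 2 with median centring, 2 with the mean over probe sets and 4 with array weights (743 of 11145, 413 of 10684 and 2082 of 11145). Without replicate 1 it was 10 with median centring, 1 with quantile normalization and 1 on the deposited scale (2968, 1239 and 1218 of 11121). In the Pou3f1 knockdown it was 5 with array weights (1744 of 11145), and 1 without Bcl6b knockdown replicate 1 on each of the 3 scales (932, 1231 and 1268 of 11121). Leaving out each array in turn gave 0 to 2 in the Etv5, 0 to 1 in the Bcl6b and 0 to 1 in the Pou3f1 knockdown. The small subunit median in the Etv5 knockdown (0.012) became -0.0100 with quantile normalization, with or without Bcl6b knockdown replicate 1, and -0.011 without _s_at and _x_at probe sets, and ranged from -0.0031 to 0.019 with each array left out. In the Bcl6b knockdown it (-0.0035) became -0.063 with median centring, -0.034 without those probe sets and -0.029 with array weights. Without replicate 1 it was -0.11 with median centring and -0.019 with quantile normalization, and it ranged from -0.035 to 0.0042 with each array left out. The large subunit median there (0.021) became -0.083 with median centring without replicate 1. Also in the Bcl6b knockdown, Rpl7l1 turned to -0.18 with the mean over probe sets, and with median centring without replicate 1 Rpl7l1 turned to -0.11, Rps25 to -0.20 and Rps6 to -0.20. Centring, as given above, moved every gene of an array by the same amount. The cause of the turn of Rpl7l1 with the mean over probe sets was not tested. For 26 named members, 77 of 2065 differences that passed in neither setting changed sign, and 35 passed under an alternative only.

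The replicate block called 0 ribosomal protein genes in each knockdown and changed no call among them. Settings that combine a scale with leaving out Bcl6b knockdown replicate 1 were chosen after seeing the data.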
